A study of Bos taurus with 8 samples.

Results

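The miR-17 seed family was studied in small RNA of bovine sera and exosomes. Its members were taken by name from the value tables of all libraries: bta-miR-17-5p, bta-miR-20a, bta-miR-20b, bta-miR-93, bta-miR-106a and bta-miR-106b, which are 6 of the 534 miRNAs listed and 6 of the 445 with a read in any library. Blood came from 4 healthy lactating Holstein cows, and no treatment is described. From each cow, 1 library was made from serum RNA (sera) and 1 from RNA of exosomes, small vesicles released by cells, that were isolated from the same serum with a commercial kit. No removal of exosomes from the serum is described, so serum RNA can include exosomal RNA. The RNA kits also differed between sera and exosomes, and the sample type and the extraction cannot be told apart. Values are RPM, the reads of a miRNA scaled to the same total of miRNA reads in every library, and thus describe shares of a library rather than amounts per volume of serum. In such fluids, fewer releasing cells or vesicles and less of a miRNA in each cannot be told apart.

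A miRNA finds the transcripts it represses mainly through its seed, bases 2 to 8 of the mature strand. The 6 members have the same seed and therefore overlapping predicted targets, among them inhibitors of the cell cycle and factors of cell death. They come from 3 clusters of miRNA genes that arose by duplication and are each transcribed as 1 primary RNA: miR-17-92, which is known as an oncogenic cluster and is active in blood cell progenitors, miR-106b-25 and miR-106a-363. In the RefSeq annotation of the bovine assembly ARS-UCD2.0, MIR17 and MIR20A lie beside MIR18A, MIR19A, MIR19B and MIR92A-1. MIR106B and MIR93 lie with MIR25 inside MCM7, the gene of a DNA replication licensing factor. MIR106A and MIR20B lie beside MIR18B, MIR19B-2, MIR92A-2 and MIR363. Since the mature sequences of several members are nearly alike, reads could have been shared between them in the authors' alignment.

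Total miRNA reads ranged from 264769 to 590162 among sera and from 60682 to 157710 among exosomes. A count of 3 reads was therefore worth 5.08 to 11.3 RPM in a serum and 19.0 to 49.4 RPM in an exosome library. MiRNAs rich in erythrocytes (miR-451, miR-486, miR-144, miR-16a and miR-16b, none at 0 in any library) had a summed level of 180127 to 268238 RPM among sera and 207211 to 401218 RPM among exosomes, higher in the exosomes in 4 of 4 cows. Most of this sum was miR-486, at 129700 to 200000 RPM among sera and 173600 to 348900 RPM among exosomes. The limma log2 fold change of sera over exosomes was -0.73 for miR-486 and -0.0035 for miR-451. It was 0.65 for miR-16b, 1.10 for miR-144 and 1.44 for miR-16a. Of these 5, 2 were called higher in sera by limma and none in exosomes. The leukocyte list (5 miRNAs, none at 0) ranged from 30286 to 39515 RPM among sera and from 31672 to 45813 RPM among exosomes. The liver list (miR-122 and miR-192, of which 1 was at 0 in 1 exosome library) ranged from 31518 to 57479 RPM among sera and from 22081 to 57216 RPM among exosomes. No miRNA of either list was called. The muscle list (6 miRNAs, of which 4 were tested, none was called and 1 to 4 were at 0 in each library) summed to 23097 RPM in the serum and 26301 RPM in the exosomes of cow 1, against 164 to 342 RPM in the other cows. The part of these miRNAs in the results below was not tested.

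MiR-93 was the most abundant member in both sample types, followed by miR-106b, miR-17-5p and miR-20a, and miR-106a and miR-20b were close to the limit of detection. Mean levels (± SD, n = 4) are given first for sera and then for exosomes. They were 4792 ± 902 and 3568 ± 543 RPM for bta-miR-93. They were 1672 ± 289 and 868 ± 39.6 RPM for bta-miR-106b, 903 ± 283 and 453 ± 138 RPM for bta-miR-17-5p, and 470.1 ± 108 and 297 ± 128 RPM for bta-miR-20a. The low members had 18.2 ± 11.6 and 9.62 ± 11.1 RPM (bta-miR-106a) and 12.4 ± 3.82 and 3.52 ± 4.12 RPM (bta-miR-20b). Among all miRNAs ordered by their mean, miR-93 was number 41 in sera and 37 in exosomes, and miR-106b was number 61 and 76. Each of the first 3 steps of this order was found in 4 of 4 libraries of each sample type. The ranges of neighbours in the order did not overlap for these steps, except for miR-17-5p and miR-20a in exosomes. MiR-106a and miR-20b did not differ in level beyond their spread in either sample type.

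**Figure D1:**
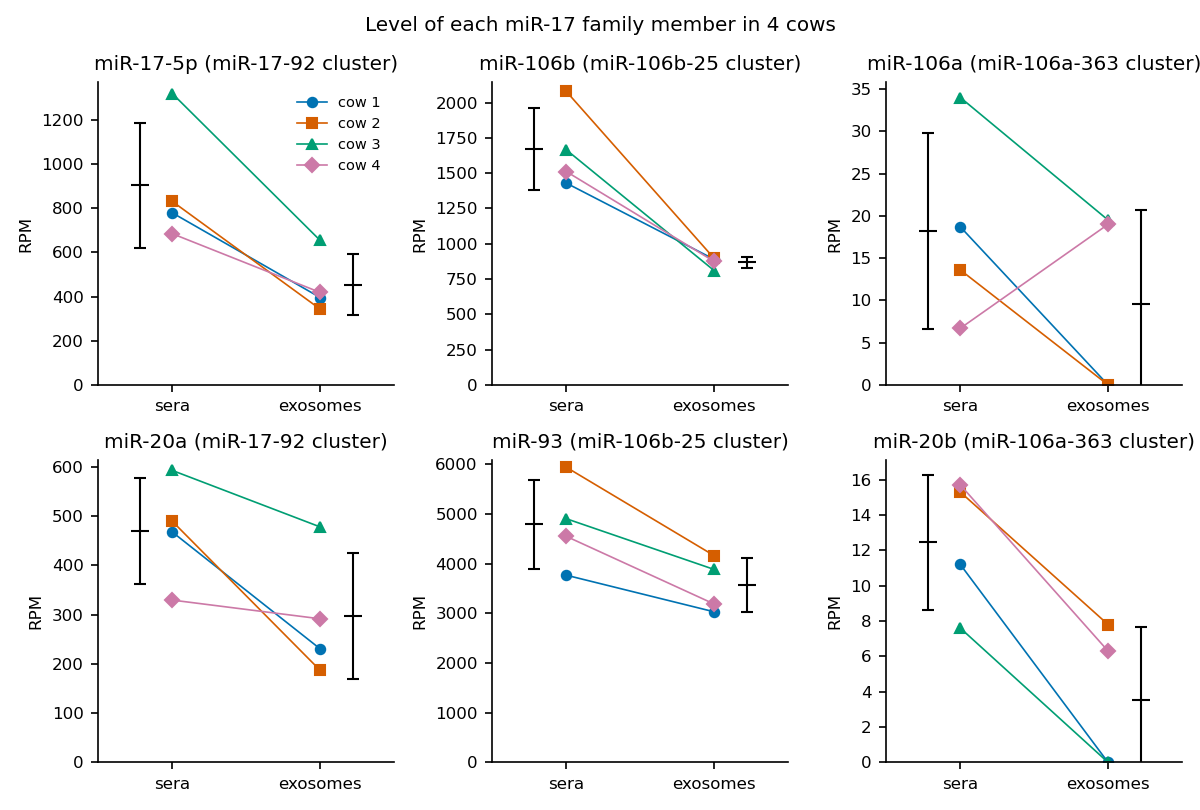
Level (RPM, linear axes that start at 0 and differ between panels) of the 6 members in sera and exosomes; each coloured line joins the serum and the exosomes of 1 cow, and black marks with bars give the mean ± SD of 4 libraries (bars are cut at 0). The 4 exosome libraries lie below the 4 sera libraries for miR-17-5p and miR-106b, while the ranges overlap for the other 4 members.

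MiR-17-5p, the leading member of the miR-17-92 cluster, was higher in sera. In cows 1 to 4 it measured 779, 830.3, 1318 and 684 RPM in serum and 396, 343, 654 and 418.5 RPM in exosomes, from 1352 and 201 reads in all. Every sera library lay above every exosome library, and the sera level was 1.63 to 2.42 times the exosome level within cows. The log2 fold change (FC) of sera over exosomes on the scale of RPM + 1 was 0.99 (standard error 0.27, limma FDR = 0.0426), which stayed under the study's limit of 1. This call was close to the threshold: leaving out any library other than the exosomes of cow 3 moved the limma FDR to between 0.0596 and 0.126, and with TMM scaling, which compensates for a few very abundant miRNAs, the log2 FC was 0.79 and the FDR 0.0911. Fits that paired the libraries of a cow (replicate block) kept the call, limma with an FDR of 5.4e-08 and edgeR, with TMM on the recovered reads, with one of 0.00017. The limma fit with the block took the variance of each miRNA almost wholly from all miRNAs together. Its FDR values therefore do not measure the spread of a miRNA over 4 cows. An exact sign-flip test within 4 cows cannot give a p under 0.125.

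MiR-20a, the other family member of the miR-17-92 cluster, was lower in exosomes than in sera in 4 of 4 cows, but by unequal amounts. The sera measured 468, 489.7, 593 and 329.7 RPM in cows 1 to 4, and the exosomes 231, 187, 478 and 292 RPM. The sera level was 2.03 and 2.62 times the exosome level in cows 1 and 2 and 1.24 and 1.13 times in cows 3 and 4, and the ranges of the sample types overlapped. The log2 FC was 0.72 (standard error 0.32) and did not pass (limma FDR = 0.17). With the cow as a replicate block it passed by limma (FDR = 0.00253, with the limit on limma block fits given above). It did not pass by edgeR with the block on the recovered reads (FDR = 0.123).

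MiR-106b, of the miR-106b-25 cluster, was higher in sera. Cows 1 to 4 had serum levels of 1430, 2079, 1666 and 1512 RPM, against exosome levels of 889.9, 897, 810.2 and 875 RPM. No exosome library reached the lowest serum, and the ratio of sera to exosomes within cows was 1.61 to 2.32. The log2 FC of 0.93 (standard error 0.19) had a limma FDR of 0.0111, and leaving out 1 library at a time the FDR stayed between 0.0129 and 0.0308. The call depended on the scaling, with an FDR of 0.0771 by limma with TMM factors and 0.136 when RPM was computed without the 10 most abundant miRNAs. With the replicate block edgeR gave an FDR of 2.7e-05 with TMM.

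MiR-93, which lies next to miR-106b in the same cluster and was the internal reference of the study's RT-qPCR, differed less between the sample types. Its serum levels were 3769, 5942, 4906 and 4551 RPM in cows 1 to 4, and its exosome levels 3032, 4164, 3885 and 3189 RPM. The serum was higher in 4 of 4 cows, by 1.24 to 1.43 times, while the ranges of the sample types overlapped. Without a block the log2 FC of 0.42 did not pass (95% interval -0.0045 to 0.84, limma FDR = 0.196). The study also reported that miR-93 did not differ between the sample types by RNA-seq. With the cow as a replicate block it passed by limma (FDR = 0.00209), but not by edgeR with TMM (FDR = 0.303, log2 FC of 0.21). The SD of its log2(RPM + 1) over the 8 libraries was 0.32, the 27th smallest of the 128 miRNAs that had 10 or more reads in each library. MiR-127, another reference that the study considered, had an SD of 0.521 and was number 76. MiR-744, the other miRNA candidate beside U6, fell to 9 reads in 1 library and was not ranked. It ranged from 229 to 593 RPM in sera and from 148 to 556 RPM in exosomes.

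MiR-106a and miR-20b, the members of the miR-106a-363 cluster, were found with few reads. The sera of the 4 cows in order held 5, 8, 9 and 3 reads of miR-106a, and the exosomes 0, 0, 2 and 3 reads. For miR-20b these were 3, 9, 2 and 7 reads in sera and 0, 1, 0 and 1 reads in exosomes. MiR-106a was higher in exosomes than in serum in cow 4. At the mean level of the 4 sera, the summed depth of the exosomes would give 8.2 reads of miR-106a, where 5 were found. For miR-20b it would give 5.59 reads, where 2 were found. The ratio of pooled sera to pooled exosome levels was 1.43 for miR-106a (exact binomial 95% interval 0.539 to 4.79) and 3.01 for miR-20b (0.735 to 26.5). These intervals cover counting error only, and both include 1. A count of 0 allowed up to 49.4 RPM in the exosomes of cow 1, which is above the highest serum value of either miRNA. The difference was therefore not detectable at this depth. The limma log2 FC was 1.89 for miR-106a (FDR = 0.359) and 2.20 for miR-20b (FDR = 0.175), and neither measures a size of change, since pseudocounts of 10 and 0.1 RPM gave 0.64 and 3.49 for miR-106a and 0.77 and 3.84 for miR-20b.

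In the fit over all 365 miRNAs with more than 1 RPM in at least 2 libraries of either sample type, 2 of the 6 members, miR-17-5p and miR-106b, were called higher in sera at an FDR under 0.05 and 0 were called higher in exosomes. All 6 members were among the 365, each with a read in at least 2 exosome libraries. Of all miRNAs tested, 19 (5.21%) were called higher in sera and 6 (1.64%) in exosomes. With the study's added limit of a log2 FC over 1 or under -1, no member was called, against 11 (3.01%) and 5 (1.37%) of all miRNAs. At an unadjusted p under 0.05 by limma, 4 members were higher in sera, as were 22.7% of all miRNAs tested. The 6 members had a log2 FC above 0, as had 74.8% of all miRNAs tested. The groups did not overlap for 2 of the 6, with sera above exosomes for 11.8% of all miRNAs, and 5 of the 6 were higher in sera in 4 of 4 cows, as were 30.7% of all. Among the 128 well-covered miRNAs, those with 10 or more reads in each library, log2 FC had a median of 0.31, and of 0.83 for the 4 members among them. Limma on these 128 alone called 30 higher in sera and 7 in exosomes. The same 2 of the 4 members were among the 30, so calls were more frequent among well-covered miRNAs in general.

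In the fits without the replicate block, the number of members that passed differed with the scaling. With TMM factors the median log2 FC of the 365 miRNAs moved from 0.57 to 0.38, and no member passed in limma (3.29% of all miRNAs called higher in sera). Relative to the median of 0.57, the log2 FC was 0.42 for miR-17-5p, 0.36 for miR-106b, 0.15 for miR-20a and -0.15 for miR-93. MiR-93 therefore lay below the median of all miRNAs tested in this fit, and above it by 0.11 when the 128 well-covered miRNAs were taken. The median of the 365 moved with the pseudocount. It was 0.72 at 0.1 RPM and 0.26 at 10 RPM, and miR-93 lay 0.30 below and 0.16 above it. MiR-93 also lay above the median by 0.08 in edgeR with TMM and by 0.14 in DESeq2. No member changed its direction in any fit. By edgeR with TMM on the recovered reads, 10 miRNAs were called higher in sera and 8 in exosomes, and no member was among them. DESeq2 called 12 and 16, again without a member. EdgeR with library totals in place of TMM called 17 and 6. Among the 17 were miR-17-5p (edgeR FDR = 0.0461) and miR-106b (edgeR FDR = 0.0159). With the cow as a replicate block in limma, 4 members passed (miR-17-5p, miR-20a, miR-106b and miR-93), when 23.0% of all miRNAs were called higher in sera. Those limma calls have the limit of a variance taken almost wholly from all miRNAs together. With the block in edgeR with TMM, miR-17-5p and miR-106b passed, when 15.1% of all miRNAs were called higher in sera.

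**Figure D2:**
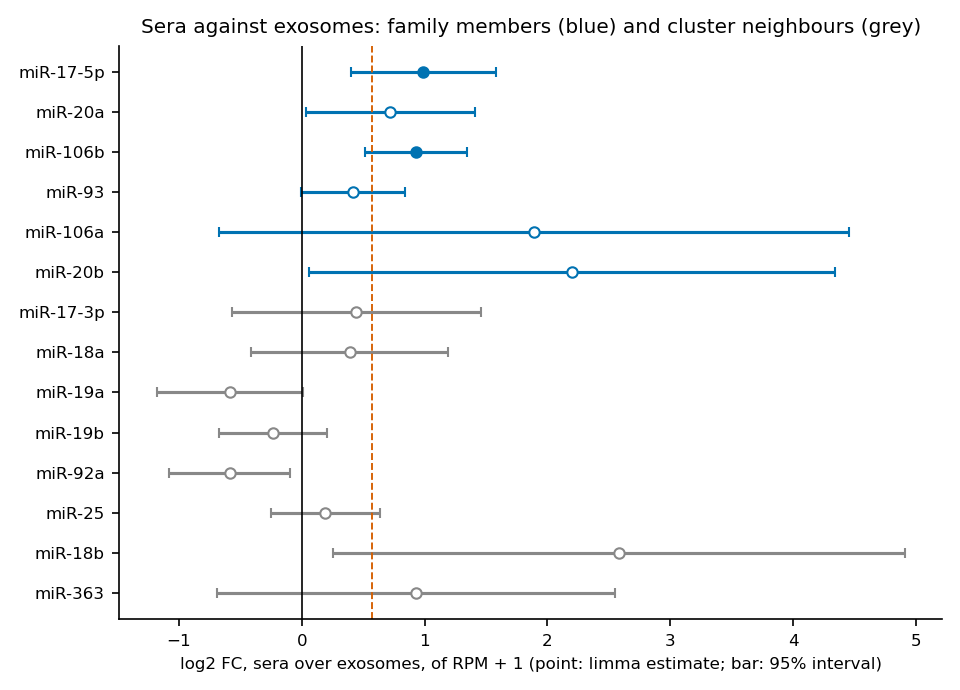
Log2 FC of sera over exosomes (limma on log2(RPM + 1); bars are 95% intervals) for the 6 members in blue and the 8 other miRNAs of their clusters in grey, with filled points at an FDR under 0.05; the solid line marks no difference and the dashed line the median of all 365 miRNAs, 0.57. MiR-17-5p and miR-106b are the filled points, and miR-19a, miR-19b and miR-92a lie on the exosome side of 0.

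The family as a whole made up less of the miRNA reads in exosomes. The summed members took 0.647%, 0.937%, 0.852% and 0.71% of the miRNA reads in the serum of cows 1 to 4, and 0.455%, 0.56%, 0.585% and 0.48% in the exosomes. Every serum lay above every exosome library, with means of 0.787% ± 0.132 and 0.52% ± 0.0622 (SD, n = 4). The difference of 0.267 percentage points had an exact two-sided permutation p of 0.0286, the smallest that 4 against 4 libraries allow, and the exact sign-flip p within cows was 0.125, which cannot be lower with 4 cows. The result rested on the denominator. The 10 most abundant miRNAs held 56.6% ± 3.56 of the reads in sera and 64.9% ± 5 in exosomes, and over the remaining reads the family held 1.83% ± 0.391 and 1.51% ± 0.337 (SD, n = 4), a difference that did not pass (exact permutation p = 0.343). Leaving out any 1 of the sera kept an exact permutation p of 0.0286, with differences of 0.217 to 0.313 percentage points. Leaving out any 1 of the exosome libraries gave an exact permutation p of 0.0571, with differences of 0.245 to 0.289 percentage points. The sample types still did not overlap. For each exosome library left out, another of the 35 assignments of unequal groups gave an absolute difference of means at least as large. The p of 0.0571 is therefore not due to an overlap.

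Within the family, the miR-106b-25 cluster held most reads in every library. MiR-93 and miR-106b together made up 77.1% to 85.6% of the family reads of a serum and 80.3% to 90.4% of those of an exosome library. MiR-17-5p and miR-20a made up 14.1% to 22.4% in sera and 9.47% to 19.4% in exosomes. MiR-106a and miR-20b contributed 0.308% to 0.488% in sera and at most 0.527% in exosomes. The share of miR-93 alone was 57.5% to 64.1% in sera and 66.4% to 74.4% in exosomes, so that its ranges did not overlap, and that of miR-106b was 19.5% to 22.2% in sera and 13.9% to 19.6% in exosomes.

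Ratios of miRNAs within a library do not depend on how the library is scaled and were used to ask whether the clusters differed in their change from sera to exosomes. The ratio of the miR-17-92 members to the miR-106b-25 members in cows 1 to 4 was 0.24, 0.165, 0.291 and 0.167 in serum and 0.16, 0.105, 0.241 and 0.175 in exosomes. It was higher in sera in 3 of 4 cows, and the ranges overlapped. The mean difference was 0.36 on the log2 scale (exact permutation p = 0.343, adjusted p = 0.486 over 3 cluster ratios). The ratios with the miR-106a-363 members, to which 1 RPM was added because the exosomes of cow 1 had none of their reads, had an adjusted p of 0.486 in the exact permutation test as well, with log2 differences of 1.01 against miR-17-92 and 1.37 against miR-106b-25. These rested on the exosomes of cow 1, without which the differences were 0.055 and 0.41.

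Among the 4 abundant members, the 6 possible pairs were compared in the same way, and for 1 pair, both from the miR-106b-25 cluster, the sample types did not overlap. The ratio of miR-106b to miR-93 measured 0.379, 0.35, 0.34 and 0.332 in the serum of cows 1 to 4, and 0.293, 0.215, 0.208 and 0.274 in the exosomes. All exosome libraries lay below all sera, and the ratio was lower in exosomes in 4 of 4 cows. The mean log2 ratio was 0.51 higher in sera, a 1.43-fold difference (exact permutation p = 0.0286, the smallest possible), which did not pass after adjustment over 6 pairs of members (adjusted p = 0.171). For miR-17-5p over miR-20a the log2 difference was 0.27, with 2 cows in each direction (exact permutation p = 0.171, adjusted p = 0.343). Of the pairs from different clusters, miR-17-5p over miR-93 had the largest log2 difference, 0.57, with higher ratios in sera in 4 of 4 cows and overlapping ranges (exact permutation p = 0.143, adjusted p = 0.343). MiR-17-5p over miR-106b differed by 0.06 (exact permutation p = 0.8, adjusted p = 0.8), miR-20a over miR-93 by 0.30 and miR-20a over miR-106b by -0.21 (both with an adjusted p of 0.754 in the exact permutation test).

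**Figure D3:**
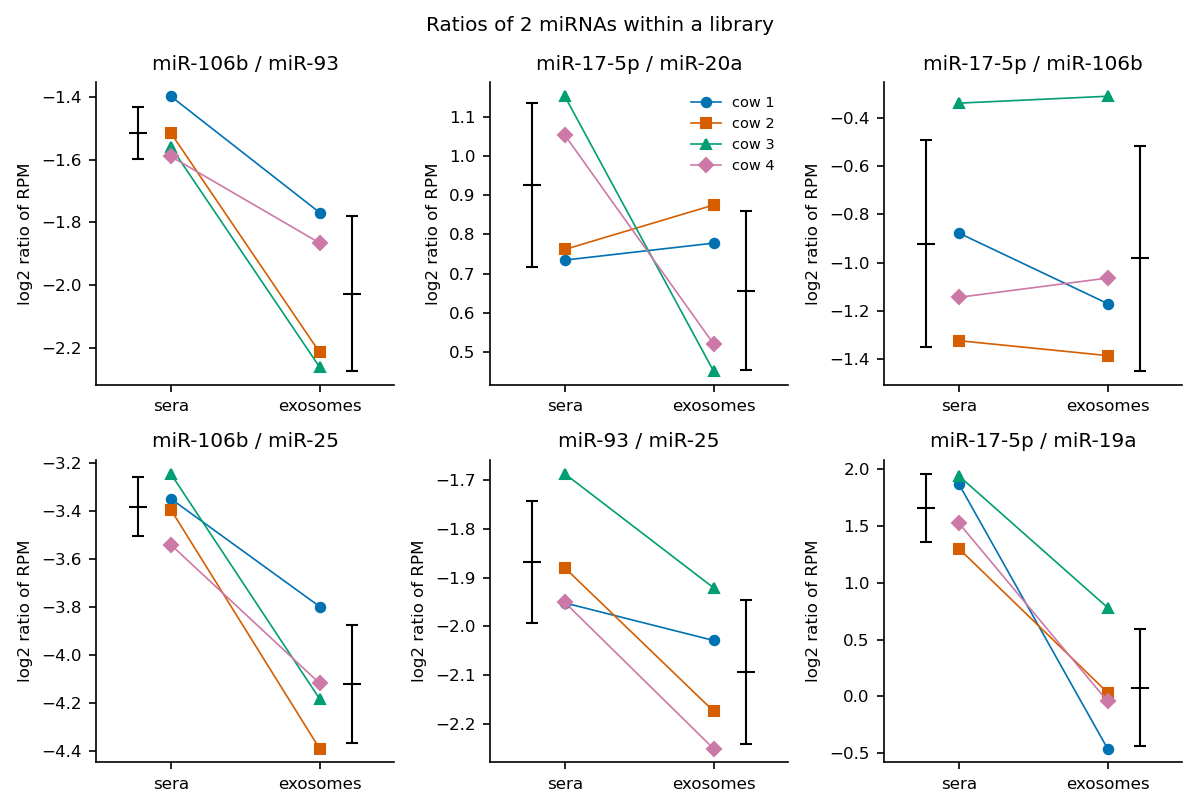
Log2 ratio of the RPM of 2 miRNAs within a library (axes differ between panels) in sera and exosomes, with a line for each cow and black marks for the mean ± SD of 4 libraries. The sera and the exosomes do not overlap for miR-106b over miR-93, miR-106b over miR-25 and miR-17-5p over miR-19a, and they overlap in the other 3 panels.

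The 8 other miRNAs of the clusters were compared by the same fit, and none was called in either direction, against 5.21% and 1.64% of all miRNAs. MiR-19a, whose seed differs from that of the family and which is processed from the same primary RNA as miR-17-5p and miR-20a, measured 213, 337, 344 and 238 RPM in the serum of cows 1 to 4, and 544, 335, 381 and 431 RPM in the exosomes. Its log2 FC was -0.59 (limma FDR = 0.196). MiR-92a, the most abundant product of the clusters and one that hairpins of 2 of them give, ranged from 48447 to 57000 RPM among sera and from 61550 to 98088 RPM among exosomes. It had a log2 FC of -0.59 (limma FDR = 0.132), and miR-25 had one of 0.19 (limma FDR = 0.639). With the replicate block in limma, 2 of the 8 were called higher in exosomes, against 3.29% of all miRNAs, and with the block in edgeR 3 of the 8, against 6.58%. Without the block, DESeq2 called miR-92a (FDR = 0.00251) and miR-19a (FDR = 0.0125) higher in exosomes, 2 of the 16 it called among 365. Limma on the 128 well-covered miRNAs called miR-92a higher in exosomes (FDR = 0.0398), 1 of 7 called. Without the exosomes of cow 2, limma called miR-18b higher in sera (FDR = 0.0301), 1 of 18 called.

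Within the same cluster, members were set against neighbours that come from 1 hairpin, a comparison that was chosen after the values were seen. The ratio of miR-17-5p to miR-19a in cows 1 to 4 was 3.65, 2.46, 3.83 and 2.88 in serum and 0.727, 1.02, 1.72 and 0.971 in exosomes. No exosome library reached the lowest serum, and the mean ratio was 2.99 times higher in sera. The same held for miR-20a over miR-19a, with a 2.48-fold difference, and for miR-106b over miR-25, with a 1.67-fold difference. Each of these 3 ratios had the smallest possible exact permutation p of 0.0286, and over the 6 ratios computed their adjusted p was 0.0571. The ratio of miR-93 to miR-25, by contrast, was 1.17 times higher in sera with overlapping ranges (exact permutation p = 0.0857, adjusted p = 0.129). MiR-17-5p over miR-18a and miR-20a over miR-18a differed by 0.60 and 0.33 on the log2 scale (exact permutation, adjusted p = 0.137 and 0.371). For the 3 ratios without overlap, the adjusted p was 0.114 in the exact permutation test without any 1 of the sera, and 0.0571 without the exosomes of cow 1, 2 or 4. Without the exosomes of cow 3 it was 0.0286 for all 6 ratios, and the difference of miR-20a over miR-18a was 0.64.

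Both strands of the miR-17 hairpin were listed. MiR-17-5p carries the seed of the family and in cows 1 to 4 was 9.9, 8.75, 21.8 and 6.93 times as abundant as miR-17-3p in serum and 4.8, 5.5, 16.8 and 6.6 times in exosomes. The ratio was highest in cow 3 in both sample types, and the sample types overlapped. The mean log2 ratio was 0.54 higher in sera, with the same direction in 4 of 4 cows (exact permutation p = 0.371; exact sign-flip p = 0.125). MiR-17-3p rested on 4 to 10 reads in each exosome library.

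The levels also differed between cows. MiR-17-5p and miR-20a were highest in cow 3, and miR-93 was highest in cow 2, in sera as well as in exosomes. MiR-106b was highest in cow 2 among sera, while the exosomes of the 4 cows differed by less than counting error. MiR-106a and miR-20b had too few exosome reads for an order of cows. The highest cow exceeded the lowest by 1.93 times in sera and 1.91 times in exosomes for miR-17-5p, by 2.56 times in exosomes for miR-20a, and by 1.58 times in sera and 1.37 times in exosomes for miR-93. MiR-106b varied by 1.45 times among the sera and by 1.11 times among the exosomes. The summed erythrocyte miRNAs, most of them miR-486, were also highest in cow 2 in both sample types. Their part in the levels of miR-106b and miR-93 was not tested.

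The likeness of profiles was measured as the root mean square difference of log2(RPM + 1) over the 8 libraries, with each miRNA centred on its own mean, among the 128 well-covered miRNAs. Among miRNAs outside the family, the nearest to miR-93 was miR-25 of its own cluster (0.164), followed by miR-16b (0.183) and miR-375 (0.192). MiR-17-5p and miR-20a were 0.223 apart, and let-7g was the nearest miRNA outside the family to both (0.211 and 0.21). The next were miR-26b (0.222) and miR-222 (0.223) for miR-17-5p, and miR-222 (0.241) and miR-877 (0.278) for miR-20a. The nearest to miR-106b were miR-2957 (0.196), miR-152 (0.205) and miR-199b (0.226). MiR-106b was 0.302 from miR-93, 0.39 from miR-17-5p and 0.461 from miR-20a. These distances are descriptions, and the libraries share cows and extraction kits.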

How the data were processed

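Small RNA libraries of sera and exosomes from 4 cows were sequenced as a pool. CASAVA 1.8 was used by the authors to drop reads of low quality, and sRNAbench to cut adaptors and to align each library separately to the bovine miRNAs of miRBase. The deposited values are RPM, computed by the authors with sRNAbench, and they sum to the same total in each library. The reads behind each value were recovered from the smallest step of a library, with 100% of values whole within 0.05 RPM. Sample types come from the labels. The cow of a library was taken from its replicate number.

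The values were tested with limma (eBayes, trend = TRUE) after log2(RPM + 1) for 365 miRNAs, with Benjamini-Hochberg FDR over all of them. EdgeR, which the study used for this comparison, here with its quasi-likelihood test, and DESeq2 were run on the recovered reads as alternatives. Single values were tested with exact two-sided permutation tests over 70 assignments, on the absolute difference of means, and exact sign-flip tests within cows. Sera and exosomes came from the same cows. Over 128 miRNAs, deviations from the group means had r of 0.74 to 0.86 within a cow. Between cows r was -0.501 to 0.195, with a mean of -0.244, which the centring on group means itself pulls down. Each r within a cow was above all of those between cows, so the numbers pair the libraries. No pair of libraries of a sample type agreed within counting noise (chi-square per degree of freedom of at least 29.1). The other alternatives were pseudocounts, filters, scalings and each library left out.

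The members and lists were chosen with earlier results of these data known. The miRNAs named are the members, their clusters, the study's reference miRNAs, and the 3 nearest in profile to each well-covered member; miR-17 relatives outside the list were not searched for, since mature sequences were not used here. Models were run in R 4.3.3 (DESeq2 1.42.0, edgeR 4.0.16, limma 3.58.1) and other steps in Python 3.11.15 with SciPy 1.17.1, NumPy 2.4.6, pandas 2.3.3 and, for plots, matplotlib 3.10.9.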

Additional observations from a re-analysis of the deposited data

Results flagged for a closer look

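The log2 ratio of miR-20a to miR-18a in the exosomes of cow 3 (2.44) stood apart from those of the other 3 exosome libraries, the lowest of which was 1.12. Its gap to the nearest library was 0.886 of the range of the 4 exosome libraries, above the 95% limit of Dixon's test. Of 46 groups of 4 libraries examined, this was the 1 past the limit, and chance gives about 1 in 20. The ratio rests on 6 to 19 reads of miR-18a in each exosome library.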

How the results depend on the processing

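The number of members called higher in sera was 0 with limma and TMM factors, 0 without the 10 most abundant miRNAs, 0 by edgeR with TMM, 0 by DESeq2 and 4 by limma with the replicate block, against 2 in the fit reported. It was also 2 by edgeR with library totals, with either other pseudocount, without the filter and with at least 10 reads in every library. Leaving out 1 library at a time gave 1 to 2, and 0 to 1 with the added fold limit. In limma the block changed the call of miR-20a and miR-93 and of no other member. In edgeR with TMM it changed that of miR-17-5p and miR-106b and of no other member, for 2 members called. Over all miRNAs, the calls for sera and for exosomes numbered 19 and 6 in the fit reported, 84 and 12 with the block, 12 and 6 with TMM factors, 10 and 8 by edgeR with TMM, and 12 and 16 by DESeq2. DESeq2 gave no adjusted p for miR-20b.

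The family share differed by 0.313 percentage points without the 10 most abundant miRNAs (exact permutation p = 0.343) and by 0.267 in the paired test within cows (replicate block, exact sign-flip p = 0.125), which no ratio could pass with 4 cows. Without 1 library the difference was 0.217 to 0.313. The exact permutation p was 0.0286 without any 1 of the sera and 0.0571 without any 1 of the exosome libraries. The sample types did not overlap with any 1 library left out. They did overlap without the 10 most abundant miRNAs, at 1.42% to 2.36% in sera and 1.09% to 1.87% in exosomes.

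Without 1 library, the log2 difference of miR-17-5p over miR-106b ran from -0.13 to 0.286 and that of miR-20a over miR-106b from -0.42 to 0.085, so both changed sign. The ratios to neighbours ran from 0.472 to 0.838 for miR-17-5p over miR-18a, 1.40 to 1.81 for miR-17-5p over miR-19a, 0.197 to 0.637 for miR-20a over miR-18a, 1.09 to 1.61 for miR-20a over miR-19a, 0.649 to 0.846 for miR-106b over miR-25 and 0.166 to 0.284 for miR-93 over miR-25. All 6 reached an adjusted exact permutation p of 0.0286 without the exosomes of cow 3, and none passed without any other library (adjusted exact permutation p of up to 0.6). The depth of the exosomes limits miR-106a, miR-20b and miR-17-3p.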

Other observations

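The spread of miR-106b between the exosomes of the 4 cows, a coefficient of variation of 4.56%, was smaller than the 10.8% that counting of its reads alone would give. In exosomes the spread was 15.2% against 5.26% from counting for miR-93, 30.4% against 14.9% for miR-17-5p, and 43.2% against 18.3% for miR-20a.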
